A study of Drosophila melanogaster with 12 samples.

Results

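The genes described here are the autophagy genes, the subunits of the lysosomal proton pump and 3 lysosomal proteins of the fly. The rule that picks them goes by gene symbol: every listed gene whose symbol starts with Atg and a digit or with Vha, together with cathD, Cp1 and Lamp1. The rule found 34 of the 9500 listed genes: 11 Atg genes, 20 Vha genes and the 3 lysosomal genes. RNA was sequenced after ribosomal RNA removal from fat bodies of female larvae of the third instar, in the wandering stage, which had been raised on 1 of 4 diets. HFD was 1.7 M fructose and its control CFD 0.3 M fructose, and HGD was 1.7 M glucose and its control CGD 0.3 M glucose, with 3 biological replicate libraries per diet. Larvae on all 4 diets came from the same cross of w1118 males to UAS-Dcr2; r4-GAL4 females, so all of them carried Dicer-2 under a fat body driver. The growth notes also mention RNA interference of InR, but the cross they name holds no such transgene, and so these larvae are treated as controls.

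Autophagy wraps cytoplasm in a double membrane and delivers it to the lysosome. The Atg1 kinase complex starts the process, Atg9, Atg2 and a lipid kinase complex containing Atg6 build the membrane, and a pair of ubiquitin-like systems attach Atg8a to it. The lysosome digests the cargo at low pH, which the V-ATPase maintains: its cytosolic V1 part splits ATP and its membrane V0 part carries protons. In the fat body, which stores the larva's lipid, glycogen and protein, autophagy is held down by the TOR kinase in fed larvae. It is switched on by starvation, and comes on again through the steroid hormone ecdysone when larvae wander. The paper gives a developmental delay as its reason for matching larvae by stage. Larvae on high and control sugar may therefore differ in age, and age and diet cannot be told apart.

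The deposited values are read counts adjusted to a common library size. They are called normalized values here and have no unit. Reads in listed genes, recovered from those values, ran from 3484910 in HFD replicate 2 to 11134938 in HFD replicate 1. The paper's supplement lists similar numbers of mapped reads for every library, so HFD replicate 2 was low in reads of listed genes only. Where its other reads fell was not tested. HFD replicate 2 also stood apart by its ribosomal RNA. The 18S gene CR41548 took 8.67% of its reads in listed genes, against at most 0.306% in every other library. Every listed gene had at least 1 read in every library, so genes with no reads in some library are not covered. Markers of the fat body were high on all diets, with summed values of 1415599 to 2333500 on HFD, 1744520 to 2047810 on CFD, 1722780 to 2205240 on HGD and 1472233 to 3119385 on CGD over 6 genes. Of these, 1 was called lower with each sugar, and 1 higher and 1 lower over both sugars. Log2 fold changes with fructose and glucose were -1.92 and -1.85 for Lsp1alpha, -0.85 and -0.74 for Fbp1 and -0.02 and -0.22 for Lsp1gamma. They were 0.6 and 0.79 for Fbp2, 0.52 and 0.59 for Lsp1beta and 0.28 and 0.52 for Lsp2. Markers of other tissues also moved with diet. Summed muscle markers (15 listed of 16) ran from 29343 to 38584 on HFD against 14558 to 26144 on CFD, and from 25695 to 36673 on HGD against 8121 to 15059 on CGD, with 5 genes called higher with fructose and 13 with glucose. Summed midgut markers (12 listed of 14) ran from 1398 to 6546 on HFD against 5630 to 16223 on CFD, and from 2078 to 4387 on HGD against 6152 to 12823 on CGD, with 7 and 5 genes called lower and 1 called higher with glucose. Summed Malpighian tubule markers (4 listed of 8) ran from 353 to 438 on HFD against 581 to 1202 on CFD, and from 305 to 473 on HGD against 1465 to 1758 on CGD, with 3 genes called lower for each sugar. Of 5 hemocyte markers listed of 6, 3 fell with fructose and 4 with glucose, while Pxn rose with both and dominated the sum (4391 to 6408 on HFD against 2092 to 3450 on CFD, and 5509 to 6824 on HGD against 1964 to 4581 on CGD). Summed cuticle and epidermis markers (5 listed of 9) ran from 1785 to 2395 on HFD against 1310.0 to 1493 on CFD, and from 1355 to 1639 on HGD against 764 to 1436 on CGD, with 2 genes called higher with fructose, 3 with glucose and 0 lower. Summed salivary gland markers (all 6 listed) ran from 12866 to 14581 on HFD against 9098 to 30645 on CFD, and from 7996 to 14019 on HGD against 1894 to 7128 on CGD, with 1 gene called higher with glucose. None of the listed markers was at 0. The proton pump is abundant in the Malpighian tubule and parts of the midgut, and the part of all these other cell types in the results below was not tested. In bulk tissue, fewer cells of a type and less RNA per cell cannot be told apart.

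Most of the members that changed rose with high sugar, and those that rose included autophagy genes, pump genes and the lysosomal protease Cp1. A limma model of log2(value + 1) was fitted to the 12 libraries together, p-values were adjusted over all 9500 genes, and a gene is called at an adjusted p under 0.05. This scale understates the change of low genes. Averaged over both sugars, 16 of the 34 members rose and 5 fell with high sugar, where 41.9% of all genes were called (21.2% higher and 20.7% lower). With fructose, HFD against CFD, 7 members rose and 3 fell, where 19.3% of all genes were called (9.4% higher and 9.93% lower). With glucose, HGD against CGD, 9 rose and 2 fell, where 29.6% of all genes were called (16.7% higher and 12.9% lower). Without HFD replicate 2, which had few reads in listed genes, 3 members rose and 2 fell with fructose. In that fit 571 of all 9500 genes rose and 579 fell. In the same fit 14 members rose and 5 fell over both sugars, where 1818 of all genes rose and 1745 fell. With all libraries the median log2 fold change of the members was 0.22 over both sugars, 0.19 with fructose and 0.28 with glucose, against -0.01, -0.02 and 0.01 over all genes. By sign alone, with no test, the log2 fold change was positive for 24 members over both sugars, 23 with fructose and 23 with glucose, where 49.2%, 48.3% and 50.9% of all genes had a positive sign. Called with each sugar on its own were 7 members (Atg4, Atg7, Vha36-1, Vha55, Vha16-1, VhaAC39-1 and Cp1), where 15.2% of all genes were called with both. Without a model, 17 members had all 3 HFD libraries above all 3 CFD libraries and 4 had them below, where this held for 19% and 19.1% of all genes. For HGD against CGD the counts were 11 above and 3 below, where it held for 24% and 20.8% of all genes. All 6 high-sugar libraries lay above all 6 controls for 7 members and below them for 1, where this held for 11.2% and 9.6% of all genes.

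These counts depend on how libraries are scaled. When each library was divided by its total, the median of all genes shifted to -0.21 on the log2 scale over both sugars, and 5 members rose and 5 fell, while 881 of all genes rose and 2466 fell in place of 2015 and 1970. With that scaling fructose raised 1 member and lowered 4, where 414 of all genes rose and 952 fell, and the members' median was -0.01. Glucose raised 2 members and lowered 2, where 642 of all genes rose and 1363 fell, and the members' median was 0.06. Upper-quartile scaling left 8 members higher and 5 lower over both sugars, where 1305 of all genes rose and 2840 fell. All changes below are relative to the scale of the deposited table, under which the median of all genes was within 0.02 of 0 for high sugar against control. The 10 members called over both sugars under library totals were Atg2, Atg4, Vha36-1, Vha55 and Cp1, which rose, and Atg1, Atg7, Vha14-1, Vha100-4 and Lamp1, which fell.

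**Figure D1:**
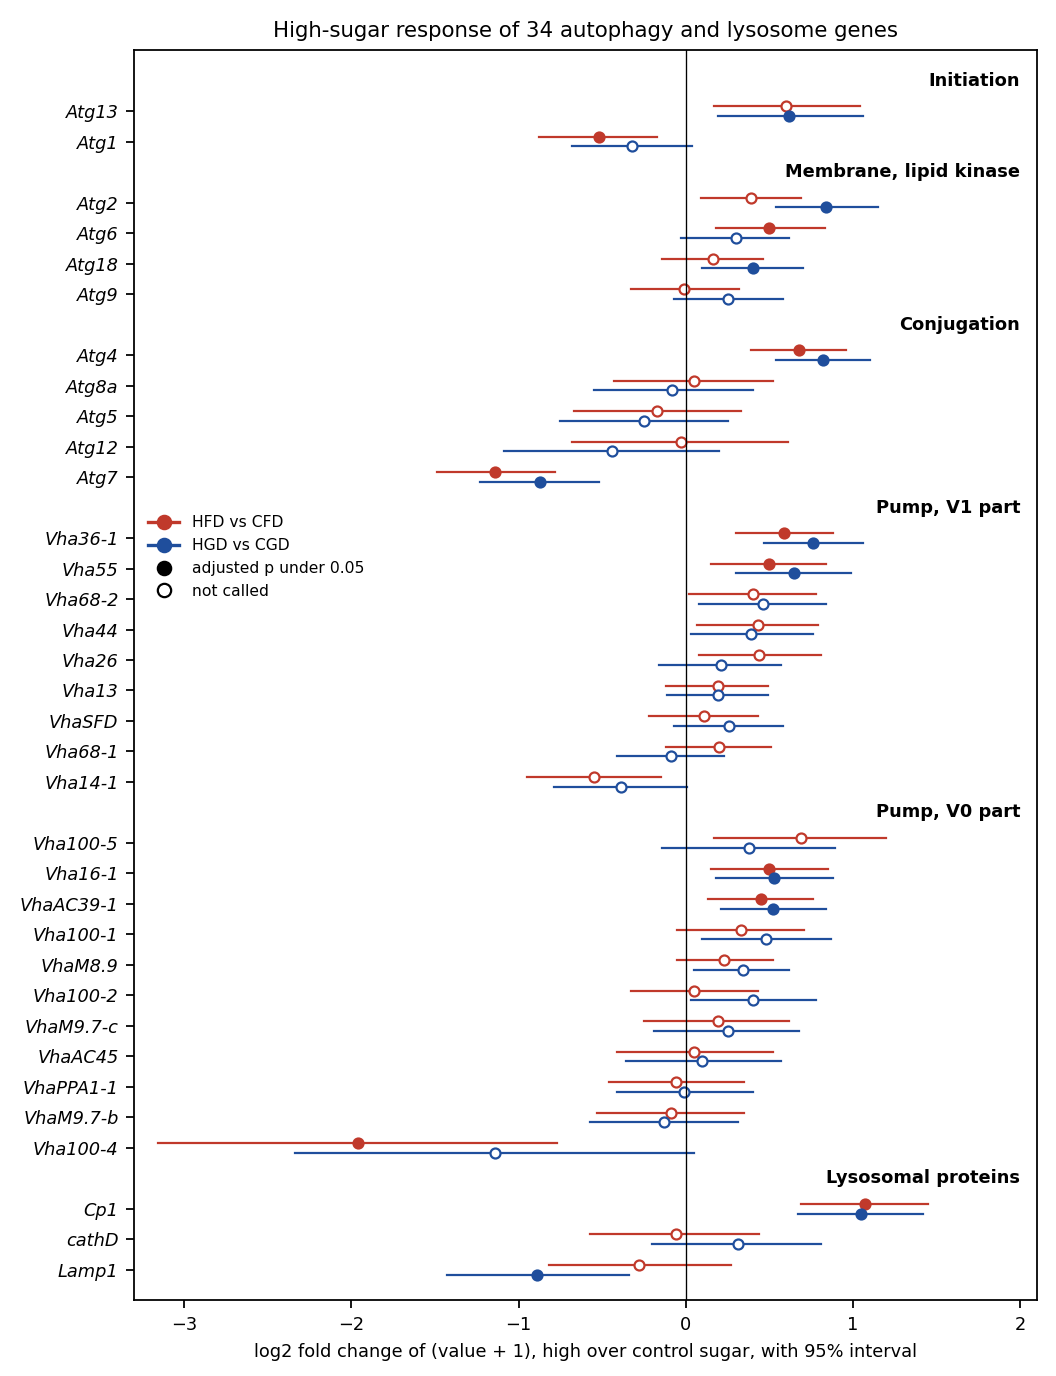
Log2 fold change of (value + 1) for all 34 members, grouped by role, with 95% intervals. Red points are HFD against CFD and blue points HGD against CGD, filled where the adjusted p was under 0.05. Cp1 and Atg4 lie well right of 0 and Atg7 well left of it for both sugars, and most pump genes lie right of 0.

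The 2 members in the kinase complex that starts autophagy, Atg1 and Atg13, changed in opposite directions. Atg1, the catalytic kinase of the complex, had normalized values of 338, 326 and 378 on HFD, against 439.5, 508 and 557 on CFD. It had 354, 317 and 373 on HGD, against 348, 422.5 and 552 on CGD. The fructose groups did not overlap, while the lowest CGD library lay inside the HGD range. Atg1 fell by 0.52 with fructose (SE 0.17, adjusted p = 0.0407). With glucose the log2 fold change was -0.32 (SE 0.17, adjusted p = 0.163), and over both sugars it fell by 0.42 (SE 0.12, adjusted p = 0.0111). The fructose call was lost in 7 of 12 fits that left out 1 library, with an adjusted p of up to 0.13 without CFD replicate 3, and the call over both sugars in 0 of 12. Atg13, the partner that regulates Atg1, had 174, 213 and 236 on HFD, against 119, 137 and 152 on CFD. On HGD it had 276, 151 and 194, against 126.5, 141 and 123 on CGD. High-sugar libraries lay above the controls within each sugar. Atg13 rose by 0.62 with glucose (SE 0.20, adjusted p = 0.033) and by 0.61 over both sugars (SE 0.14, adjusted p = 0.0038). The fructose estimate was nearly the same, 0.60, but its adjusted p was 0.051. Under library totals Atg13 was not called in any of these comparisons, and its glucose call was also lost in 5 of 12 fits that left out 1 library, with 0.39 (adjusted p = 0.121) without HGD replicate 1.

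Of the 4 genes for membrane supply and lipid signalling, 3 rose over both sugars and none fell, where 21.2% of all genes rose and 20.7% fell. Atg2, a lipid transfer protein that feeds the growing membrane, gave 1083, 1090.0 and 1100.0 on HFD, against 668, 914.5 and 942 on CFD. Its HGD values were 1154, 1165 and 1181, against 625, 705 and 621 on CGD. All 6 high-sugar libraries lay above all 6 control libraries, and they spread little, with an SD of 0.012 (HFD) and 0.017 (HGD) on the log2 scale. Atg2 rose by 0.84 with glucose (SE 0.14, adjusted p = 0.000698) and by 0.62 over both sugars (SE 0.10, adjusted p = 0.000282), and had 0.39 with fructose (SE 0.14, adjusted p = 0.0663). No left-out library removed these calls, but the glucose call was lost under library totals. On the control diets Atg2 averaged 650 ± 47.3 on CGD and 841 ± 151 on CFD (SD, n = 3 each), and the adjusted p of that difference was 1.0 and of the difference between the responses 0.937.

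Atg6, the fly Beclin-1 and a subunit of the lipid kinase complex, had 97.9, 126 and 122 on HFD, against 78.4, 84.8 and 79.1 on CFD. It had 122, 112 and 97.9 on HGD, against 86.2, 91.4 and 90.8 on CGD. All 6 high-sugar libraries again lay above all 6 controls, by a smaller step. Atg6 rose by 0.50 with fructose (SE 0.15, adjusted p = 0.032) and by 0.40 over both sugars (SE 0.11, adjusted p = 0.00858), and had 0.30 with glucose (adjusted p = 0.149). The fructose call was lost in 5 of 12 fits that left out 1 library, with an adjusted p of up to 0.118 without HFD replicate 2. Atg18 (named Atg18a in the BDGP6.54 annotation, release 115), which binds the lipid that the kinase makes, had 559, 457 and 466 on HFD, against 434, 429 and 454 on CFD. It had 445, 542 and 528 on HGD, against 356, 354 and 441.5 on CGD. The groups did not overlap within either sugar, but HFD replicates 2 and 3 and HGD replicate 1 were close to the controls. Atg18 rose by 0.40 with glucose (SE 0.14, adjusted p = 0.0456) and by 0.28 over both sugars (SE 0.10, adjusted p = 0.0345), and had 0.16 with fructose (adjusted p = 0.45). Both calls of Atg18 were fragile, being lost in 8 and 7 of 12 fits that left out 1 library, with adjusted p up to 0.154 and 0.0864, both without CGD replicate 2. Atg6 and Atg18 were not called under library totals in any comparison. Atg9, the membrane protein of the vesicles that seed the autophagosome, had log2 fold changes of -0.01 with fructose and 0.25 with glucose and was not called.

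Among the conjugation genes the largest fall and one of the largest rises of the autophagy genes stood side by side. Atg7, the activating enzyme that both ubiquitin-like systems share, had 284, 211 and 266 on HFD, against 551, 550.2 and 563 on CFD. It had 236, 222 and 311 on HGD, against 392.3, 494 and 517 on CGD. The highest high-sugar library lay below the lowest control library. Atg7 fell by 1.14 with fructose (SE 0.17, adjusted p = 0.000434), by 0.87 with glucose (SE 0.17, adjusted p = 0.00172) and by 1.0 over both sugars (SE 0.12, adjusted p = 2.06e-05), a fold of 0.499. It was called in all 3 comparisons under every alternative, library totals and each left-out library included. Atg4, the protease that trims Atg8a before conjugation and releases it from the membrane afterwards, had 627.5, 727 and 659 on HFD, against 399, 428 and 431 on CFD. Its values were 575, 631 and 670 on HGD, against 315.5, 345 and 405 on CGD. All 6 high-sugar libraries lay above all 6 controls. Atg4 rose by 0.68 with fructose (SE 0.13, adjusted p = 0.00302), by 0.82 with glucose (SE 0.13, adjusted p = 0.00052) and by 0.75 over both sugars (SE 0.09, adjusted p = 3.41e-05), a fold of 1.68. No single left-out library removed any of these 3 calls, but the fructose call was lost under library totals. Atg4 is Atg4a in the BDGP6.54 annotation (release 115), where 51.4% of its exon bases overlap CG4629 on the other strand. No source used here gives the strand setting of the counting, so reads from the overlap cannot be told apart, and CG4629 itself was listed at 76.5 ± 5.78 on HFD against 79.5 ± 16 on CFD and 83.8 ± 21.0 on HGD against 66.7 ± 4.41 on CGD (SD, n = 3 each), with no call.

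The other conjugation genes were not called. Atg8a, the ubiquitin-like protein on autophagosome membranes and by far the most abundant Atg transcript per kilobase of exon, had 1398, 1247 and 1143 on HFD, against 1367, 1270.0 and 1045 on CFD. It had 1651, 918 and 1114 on HGD, against 988, 1221 and 1644 on CGD. The ranges overlapped almost fully for both sugars. The log2 fold changes of Atg8a were 0.05 with fructose (95% interval -0.43 to 0.52), -0.08 with glucose (-0.55 to 0.40) and -0.02 over both sugars (-0.35 to 0.32). Atg5 and Atg12, which are joined into the conjugate that guides Atg8a to the membrane, had -0.17 and -0.03 with fructose and -0.25 and -0.44 with glucose. Atg12 was read thinly, at 8 to 48 reads per library. Of the 11 Atg genes, 5 rose and 2 fell over both sugars, where 21.2% of all genes rose and 20.7% fell, with a median log2 fold change of 0.12 that turned to -0.08 under library totals, where 2 rose and 2 fell.

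**Figure D2:**
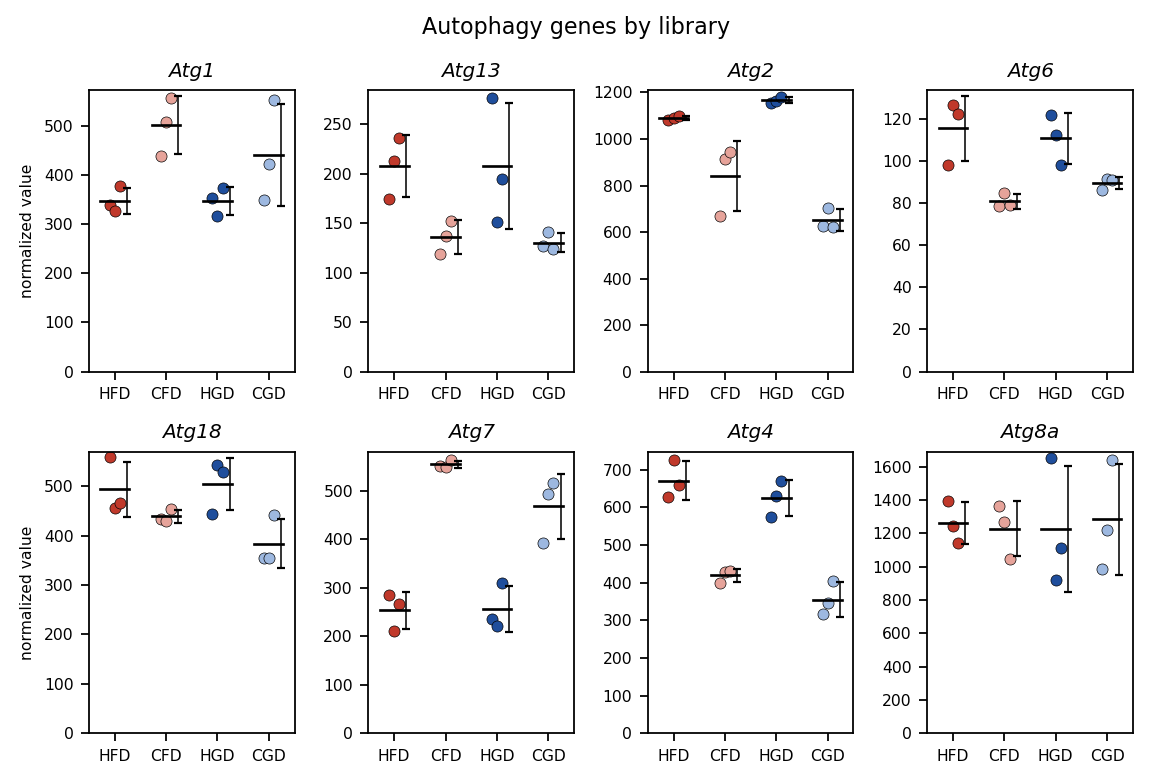
Normalized values of 8 autophagy genes in each library (points), with the mean (bar) and SD (n = 3) for HFD, CFD, HGD and CGD. Atg7 is below every control in all 6 high-sugar libraries, Atg2, Atg4 and Atg6 are above every control, and Atg8a overlaps between diets.

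The V1 part of the proton pump rose in 5 of its 9 listed genes over both sugars, and 1 fell, where 21.2% of all genes rose and 20.7% fell. Vha36-1, the D subunit in the central stalk, had 688, 738 and 825 on HFD, against 536, 506 and 451 on CFD. It had 802, 926 and 765 on HGD, against 519, 433 and 517 on CGD. No high-sugar library came within the range of the controls. The rise of Vha36-1 was 0.59 with fructose (SE 0.14, adjusted p = 0.00852), 0.76 with glucose (SE 0.14, adjusted p = 0.00113) and 0.68 over both sugars (SE 0.10, adjusted p = 0.000104), a fold of 1.60. It kept all 3 calls with any 1 library left out. Vha55, the B subunit of the ATP-splitting head and the V1 gene with the highest mean value, had 1675, 1652 and 1270.0 on HFD, against 985, 1108 and 1147 on CFD. It had 1328, 1670.0 and 1517 on HGD, against 881, 872 and 1143 on CGD, so that all high-sugar libraries were again above all controls. Vha55 rose by 0.50 with fructose (SE 0.16, adjusted p = 0.0429), by 0.65 with glucose (SE 0.16, adjusted p = 0.00858) and by 0.57 over both sugars (SE 0.11, adjusted p = 0.00125). The fructose call of Vha55 was lost in 8 of 12 fits that left out 1 library, with an adjusted p of up to 0.145 without HFD replicate 2, and the other calls in none. Under library totals neither Vha36-1 nor Vha55 was called with fructose or with glucose alone.

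Smaller rises came from Vha44, Vha68-2 and Vha26, each called over both sugars only and none of them under library totals. Vha44, the C subunit that joins V1 to V0, had 384, 517 and 408 on HFD, against 336, 324 and 304 on CFD, and rose by 0.41 over both sugars (SE 0.12, adjusted p = 0.0136). On HGD it had 508.5, 330.0 and 377, against 285, 292 and 335.5 on CGD, with 1 HGD library inside the CGD range. Vha44 shares 3.68% of its exon bases with Hmgs on the other strand, a gene that rose by 0.63 with fructose and 0.86 with glucose. Vha68-2, a catalytic A subunit, had 1655, 1378 and 1079 on HFD, against 1145, 967.5 and 972 on CFD. It had 1183, 1574 and 1497 on HGD, against 959.9, 931 and 1199 on CGD. Each sugar had 1 high-sugar library inside the control range. Vha68-2 rose by 0.43 over both sugars (SE 0.13, adjusted p = 0.0143). Vha26, the E subunit of the outer stalk, rose by 0.32 (SE 0.12, adjusted p = 0.0445), a call lost in 8 of 12 fits that left out 1 library, with 0.27 (adjusted p = 0.114) without CGD replicate 1.

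Vha14-1, the F subunit that sits with subunit D in the central stalk, went the other way. It had 234, 166 and 208 on HFD, against 369.5, 289 and 238 on CFD. On HGD it had 233, 201 and 255, against 319, 260.1 and 326 on CGD. The groups did not overlap within either sugar, but the margins were narrow. Vha14-1 fell by 0.47 over both sugars (SE 0.13, adjusted p = 0.0108), with -0.55 for fructose (adjusted p = 0.0516) and -0.39 for glucose (adjusted p = 0.125), and it was called over both sugars with any 1 library left out. Vha13 (subunit G), VhaSFD (subunit H) and Vha68-1 (the other A subunit) were not called in any comparison, with log2 fold changes from 0.05 to 0.19 over both sugars.

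In the V0 part 5 of 11 genes rose over both sugars and 1 fell, beside shares of 21.2% and 20.7% over all genes. Vha16-1, the proteolipid c subunit that forms most of the proton-carrying ring, had 7661, 8084 and 7164 on HFD, against 4812, 6083 and 5383 on CFD. It had 7305, 5753 and 6929 on HGD, against 4376, 4218 and 5230.0 on CGD. The groups were apart within each sugar. Vha16-1 rose by 0.50 with fructose (SE 0.16, adjusted p = 0.0466), by 0.53 with glucose (SE 0.16, adjusted p = 0.0256) and by 0.51 over both sugars (SE 0.12, adjusted p = 0.00293). VhaAC39-1, the d subunit that couples the ring to the stalk, had 820.1, 722.5 and 577.5 on HFD, against 530.5, 527 and 481 on CFD. Its HGD values were 697, 681 and 764, against 451, 483 and 562 on CGD. All 6 high-sugar libraries of VhaAC39-1 lay above all 6 controls. VhaAC39-1 rose by 0.45 (SE 0.15, adjusted p = 0.0459), 0.52 (SE 0.15, adjusted p = 0.0168) and 0.49 (SE 0.10, adjusted p = 0.00214) in the same 3 comparisons. The fructose calls of Vha16-1 and VhaAC39-1 were each lost in 9 of 12 fits that left out 1 library (adjusted p up to 0.156 without CFD replicate 1 and 0.154 without HFD replicate 1), and their glucose calls in 4 (0.101 without CGD replicate 2) and 3 (0.0734 without CGD replicate 1). The calls over both sugars were kept with any 1 library left out, and neither gene was called under library totals.

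The 4 listed genes for the large a subunit, which forms the proton path and helps to decide where the pump is placed, differed from each other. Vha100-1, the main one, had 2426, 2169 and 2054 on HFD, against 1758, 1829 and 1695 on CFD. It had 1917, 2890.0 and 2725 on HGD, against 1635, 1538 and 2191 on CGD. Fructose separated the groups and glucose did not. Vha100-1 rose by 0.41 over both sugars (SE 0.13, adjusted p = 0.019), and without CGD replicate 2 it had 0.36 with an adjusted p of 0.0541. Vha100-5 had 86.3, 73.1 and 46.1 on HFD, against 34.2, 43.6 and 45.5 on CFD. It had 57.35, 51.3 and 38.6 on HGD, against 35.9, 41.05 and 34.5 on CGD. Vha100-5 rose by 0.53 over both sugars (SE 0.17, adjusted p = 0.0217), lost the call in 3 of 12 fits (0.47, adjusted p = 0.0543 without CFD replicate 1), and shares 18.1% of its exon bases with an antisense RNA gene. Neither gene was called under library totals. Vha100-2 had log2 fold changes of 0.05 with fructose and 0.40 with glucose and was not called.

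Vha100-4 fell, from the lowest level of any member. It had 10.19, 10.15 and 3.199 on HFD, against 20.9, 38.5 and 34.85 on CFD, which rest on 3 to 14 reads on HFD and 24 to 50 on CFD. It had 4.235, 13.25 and 1.68 on HGD, against 12.95, 16.7 and 7.78 on CGD, from 2 to 15 and 8 to 24 reads. Fructose separated the groups and glucose did not. Vha100-4 fell by 1.96 with fructose (SE 0.56, adjusted p = 0.0245) and fell by 1.55 over both sugars (SE 0.39, adjusted p = 0.00637), with -1.14 for glucose (SE 0.56, adjusted p = 0.135). The fructose call was lost in 3 of 12 fits that left out 1 library, with -1.49 (adjusted p = 0.0973) without HFD replicate 3. Vha100-4 lies next to Vha100-2 on arm 3R in the BDGP6.54 annotation, release 115. Beside this fall, summed midgut and Malpighian tubule markers were also lower on HFD and HGD, as given above, and their part in it was not tested.

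The remaining V0 genes moved little. VhaM8.9 (ATP6AP2, an accessory protein that is also the prorenin receptor in mammals) rose by 0.29 over both sugars (SE 0.09, adjusted p = 0.0257), but not under library totals, and lost the call in 6 of 12 fits that left out 1 library (0.26, adjusted p = 0.0678 without CGD replicate 2). VhaAC45 (the other accessory protein), VhaPPA1-1 (subunit c″ of the ring) and VhaM9.7-b and VhaM9.7-c (both subunit e) were not called, with 0.08, -0.03, -0.11 and 0.22 over both sugars. Over the whole pump, 10 of 20 genes rose and 2 fell (21.2% and 20.7% of all genes), with a median log2 fold change of 0.26, and under library totals 2 rose and 2 fell with a median of 0.05.

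**Figure D3:**
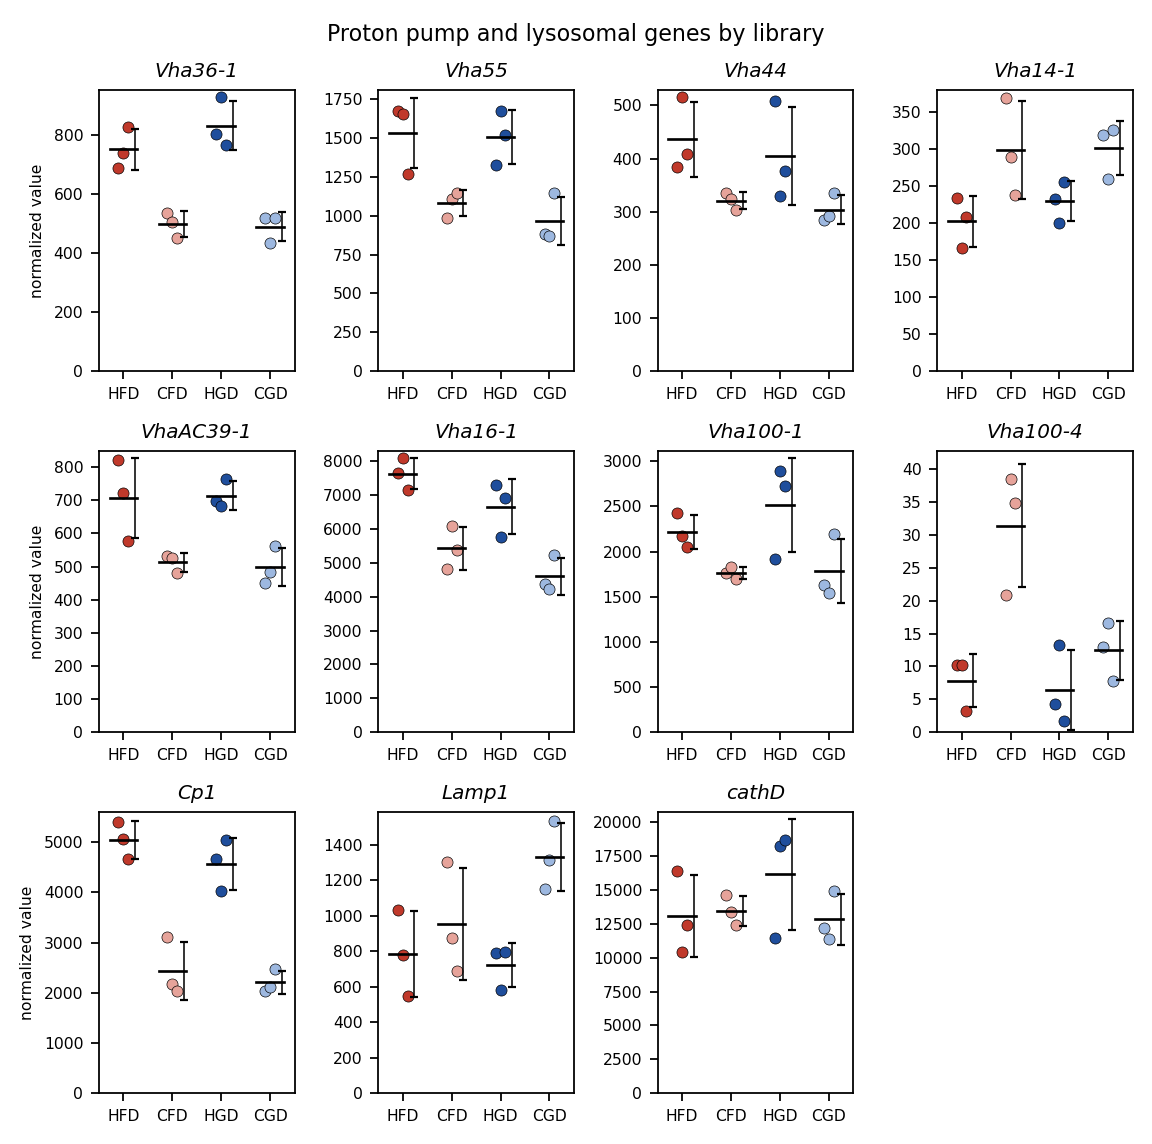
Normalized values of 8 proton pump genes, Cp1, Lamp1 and cathD in each library (points), with the mean (bar) and SD (n = 3) for HFD, CFD, HGD and CGD. Vha36-1, Vha55, VhaAC39-1 and Cp1 are above every control in all 6 high-sugar libraries, and Vha100-4 stays under 50 everywhere.

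Dividing by exon length in the BDGP6.54 annotation puts the subunits on one scale, the normalized value per kilobase of exon. On that scale Vha16-1 was the most abundant pump gene in every diet, at 2482 ± 150.0 on HFD against 1764 ± 207 on CFD and 2165 ± 263 on HGD against 1498 ± 177 on CGD (SD, n = 3 each). Averaged over all 12 libraries it reached 1980.0 per kilobase, against 683 for Vha13, 603 for Vha36-1, 456 for Vha55 and 91.1 for Vha44. Where more than 1 gene encodes the same subunit, 1 of them dominated. Vha68-2 made up 94.0% ± 1.82 of the A subunit transcripts on HFD against 93.3% ± 0.418 on CFD, and 95.1% ± 0.644 on HGD against 93.0% ± 1.03 on CGD (SD, n = 3 each), with Vha68-1 as the rest. These 2 genes are near each other on arm 2L, and no source used here says how reads that match both were counted. Vha100-1 made up 76.5% ± 1.73 of the a subunit transcripts on HFD against 72.8% ± 1.35 on CFD, and 77.0% ± 1.14 on HGD against 75.6% ± 3.95 on CGD (SD, n = 3 each). Vha100-4 stayed below 2% of that subunit in every diet mean, at 0.319% on HFD against 1.56% on CFD and 0.228% on HGD against 0.667% on CGD.

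Summed over its genes, V1 reached 3849, 3687 and 3430.0 per kilobase on HFD, against 3181, 3087 and 2749 on CFD. It reached 3544, 3850.0 and 3685 on HGD, against 2827, 2629 and 3382 on CGD. V0 reached 6146, 5536 and 5068 on HFD, against 4494, 4880.0 and 4207 on CFD, and 5291, 5346 and 5804 on HGD, against 4023, 3892 and 4932 on CGD. For both parts every high-sugar library lay above every control library of the same sugar. These sums follow their most abundant genes, Vha16-1 above all, and rest on the table's scale.

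**Figure D4:**
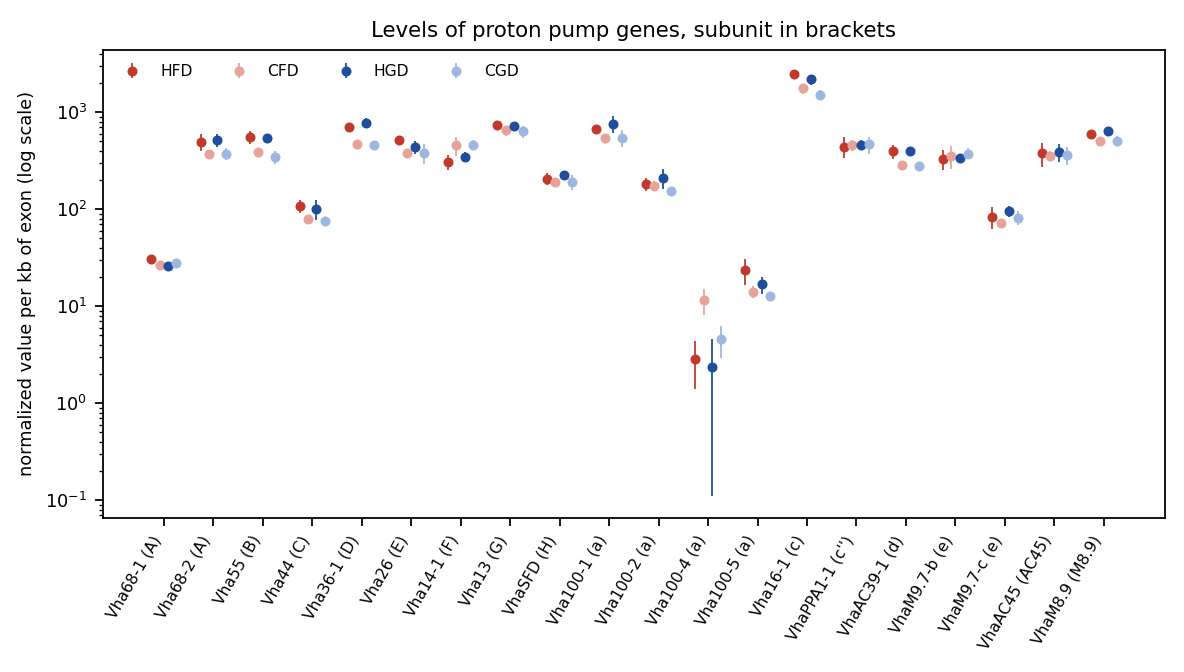
Mean normalized value per kilobase of exon (log axis) of the 20 proton pump genes, with the subunit in brackets, for HFD, CFD, HGD and CGD. Bars are the SD of 3 libraries. Vha16-1 is highest and Vha100-4 lowest, and Vha68-2 and Vha100-1 lead the genes of their subunits.

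The 3 lysosomal proteins moved apart. Cp1 (CtsL1 in the annotation), the fly cathepsin L and a main protease of the lysosome, had 5410.0, 5057 and 4657 on HFD, against 3107, 2175 and 2035 on CFD. It had 4656, 4019 and 5037 on HGD, against 2042, 2116 and 2471 on CGD. The lowest high-sugar library was above the highest control. Cp1 rose by 1.07 with fructose (SE 0.17, adjusted p = 0.001), by 1.05 with glucose (SE 0.17, adjusted p = 0.000718) and by 1.06 over both sugars (SE 0.12, adjusted p = 2.09e-05), a fold of 2.08. It was called in all 3 comparisons under every alternative. In the annotation 13.7% of its exon bases overlap CG42806 on the same strand, a gene listed at 86.6 ± 6.33 on HFD against 123 ± 6.13 on CFD and 82.9 ± 7.13 on HGD against 128 ± 14.8 on CGD (SD, n = 3 each).

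Lamp1, a glycoprotein of the lysosomal membrane, had 1034, 777 and 549 on HFD, against 1303, 874 and 689 on CFD. It had 791, 581 and 798 on HGD, against 1151, 1316 and 1534 on CGD. The fructose ranges overlapped and the glucose ranges were far apart. Lamp1 fell by 0.89 with glucose (SE 0.25, adjusted p = 0.0179) and by 0.58 over both sugars (SE 0.18, adjusted p = 0.0183), with -0.28 for fructose (SE 0.25, adjusted p = 0.484). The glucose call was lost in 2 of 12 fits that left out 1 library, with -0.74 (adjusted p = 0.0746) without HGD replicate 2. The difference between its responses was -0.61 (95% interval -1.38 to 0.16, adjusted p = 0.937). cathD, the aspartic protease cathepsin D and the most abundant member per kilobase, had 16361, 10432 and 12450.0 on HFD, against 14628, 13373 and 12392 on CFD. It had 11432, 18268 and 18719 on HGD, against 12197, 11345 and 14930.0 on CGD. The ranges of cathD overlapped for both sugars, and its log2 fold change over both was 0.12 (95% interval -0.24 to 0.48).

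The kind of sugar made no difference that passed the test. HGD against HFD, CGD against CFD and the difference between the glucose and fructose responses each had 0 called members and 0 called genes of 9500 by limma, at a background of 0%. The paper, by an edgeR exact test, did report a few genes that differed between the sugars, none of them a member. At an unadjusted p under 0.05 there were 0, 2 and 1 members, where 5.17%, 4.15% and 4.26% of all genes reached it. The 2 members between the control diets were Atg2, at -0.36 (95% interval -0.66 to -0.06), and Vha100-4, at -1.28 (-2.48 to -0.09), both lower on CGD. The 1 member in the difference of responses was Atg2, at 0.45 (0.03 to 0.88). For the median member the 95% interval of that difference reached 0.53 on the log2 scale to either side of the estimate. The lack of a call therefore does not show that the 2 responses were equal. Each sugar's libraries were adjusted on their own in the table, and comparisons across sugars rest on 1 factor, 0.878, applied to all glucose values.

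Other genes of autophagy and the lysosome that the naming rule does not take were called about as often as all genes. Of 38 listed, 8 rose and 7 fell over both sugars, near the 21.2% and 20.7% of all genes that did so, with a median log2 fold change of 0.10 that turned to -0.10 under library totals, where 3 rose (CG6194, CtsB1 and ref(2)P) and 11 fell. CG6194, named Atg4b in the annotation and the second fly Atg4, rose by 0.65 with fructose and 0.91 with glucose. CtsB1, a cathepsin B, had 1584 ± 206 on HFD against 1035 ± 177 on CFD and 1552 ± 134 on HGD against 887 ± 101 on CGD (SD, n = 3 each), and rose by 0.71 over both sugars (adjusted p = 0.000222). ref(2)P, the fly p62 that carries ubiquitin-tagged cargo into autophagosomes and is itself degraded there, had 989 ± 266 on HFD against 592 ± 63.8 on CFD and 1005 ± 58.3 on HGD against 612 ± 125 on CGD (SD, n = 3 each), and rose by 0.72 (adjusted p = 0.000958). Rbcn-3B, of the rabconnectin-3 complex that helps to assemble the pump, rose by 0.50 (adjusted p = 0.00862), with 0.36 for fructose alone (adjusted p = 0.203).

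The 4 genes of the list that fell with the smallest p were 3 enzymes and a carrier. Hexo2, a hexosaminidase, had 80.8 ± 18.3 on HFD against 420 ± 209 on CFD and 140 ± 52.5 on HGD against 445 ± 96.1 on CGD (SD, n = 3 each), and fell by 2.0 over both sugars (adjusted p = 2.77e-05). Npc2b, a sterol carrier of the Niemann-Pick type C2 family, fell by 1.51 (adjusted p = 7.82e-05), CG9701, a glycosidase, by 0.98 (adjusted p = 0.000372) and CG8093, a lipase, by 1.95 (adjusted p = 0.00048). Midgut and Malpighian tubule markers were lower in the same libraries, as given above, and their part in these falls was not tested. Mitf, the factor that drives lysosome and pump genes in the fly, had 0.20 with fructose and -0.46 with glucose and was not called (adjusted p = 0.452 and 0.0537), but was called lower with glucose under library totals, upper-quartile scaling, median-of-ratios scaling, limma-voom and without HGD replicate 1.

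Among 13 listed genes of TOR and energy sensing, 9 rose over both sugars and 0 fell, where 21.2% of all genes rose and 20.7% fell, with a median log2 fold change of 0.40, and 3 (S6k, Sesn and Thor) rose under library totals, where the median was 0.20. S6k, the kinase that TOR activates to promote growth, had 475 ± 42.3 on HFD against 238 ± 46.5 on CFD and 450.0 ± 79.9 on HGD against 202 ± 9.63 on CGD (SD, n = 3 each), and rose by 1.07 over both sugars (adjusted p = 1.35e-05). Brakes on TOR rose as well: Sesn, the fly sestrin, by 0.64 (adjusted p = 0.000518), and gig and Tsc1, the fly TSC2 and TSC1, by 0.58 (adjusted p = 0.000719) and 0.57 (adjusted p = 0.00214). The summed muscle markers, and the cuticle and epidermis markers with an overlap between HGD and CGD, were also higher on HFD and HGD, as given above, and their part in these rises was not tested. InR had 396 ± 51.8 on HFD against 347 ± 75.9 on CFD and 390 ± 39.6 on HGD against 292 ± 37.0 on CGD (SD, n = 3 each), with no call in either sugar.

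**Figure D5:**
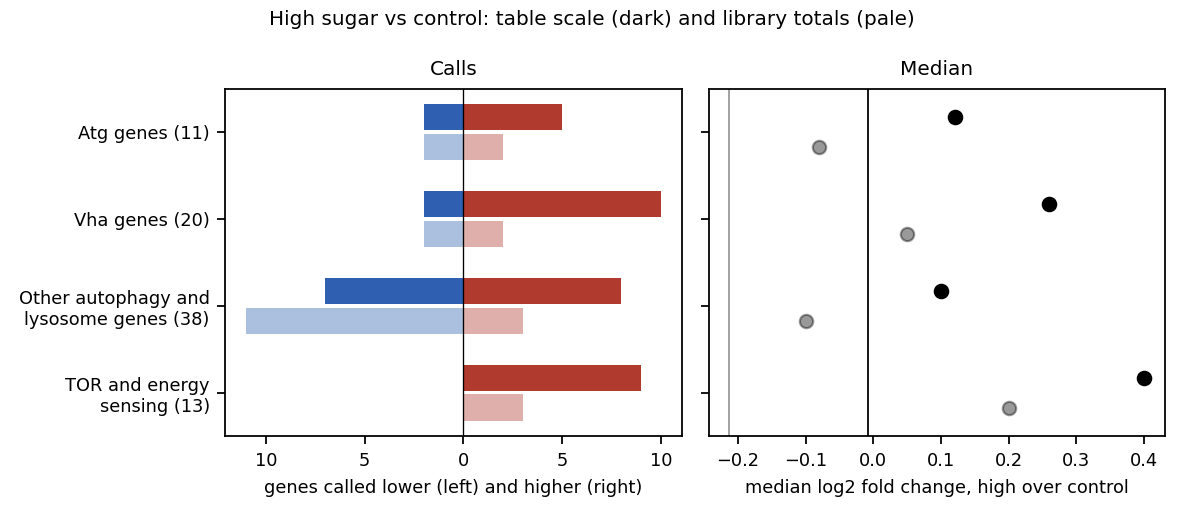
High sugar against control over both sugars for 4 gene lists. The left panel counts genes called higher (red, right of 0) and lower (blue, left of 0), and the right panel gives each list's median log2 fold change with the median of all genes as a line. Dark marks use the table's scale and pale marks library totals, under which all-gene changes centre on -0.21 and the rises of Vha genes shrink to 2 of 20.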

How the data were processed

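RNA-seq libraries were made from total RNA after ribosomal RNA removal. The paper's methods give alignment to Ensembl_R72 and gene counts from HTSeq, while the processing notes of the submitters list dm3 with Cufflinks 1.1.0, Bowtie 0.12.7 and TopHat 1.3.2. Which of these made the table was not settled, and no source used here gives the strand setting. The authors deposited a normalized signal for 9500 genes, which are counts brought to a common library size within each sugar. Inverting that adjustment gave whole reads that returned 100% of values to within 0.0001, relative or absolute. For very abundant genes the recovered reads are approximate.

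Glucose values were multiplied by 0.878. A minimum mean value of 1 removed 0 genes, so all 34 members passed. Tests (two-sided) used R 4.3.3 and limma 3.58.1 (trended eBayes) on log2(value + 1), with 4 diet groups over 12 libraries and Benjamini-Hochberg adjustment. The high-sugar contrast averages the responses to the 2 sugars. The members, lists and tests were chosen with earlier results of these data known. Values per library are given for called members (at most 5 per role, by p over both sugars) and for the member of each role with the highest mean value. Of each related list, up to 4 rising and 4 falling genes were named by p, and Mitf, InR, Hmgs, CG4629 and CG42806 were added after their values were seen. The fit was tested on simulated data. Members were matched to the BDGP6.54 annotation, release 115, which is not the authors' build, 29 by gene ID and 5 by symbol. It supplied exon lengths, overlaps and current names only. A planned promoter motif search was not run.

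Alternatives were 3 other scalings, pseudocounts of 0.1 and 5, no filter, a mean value of at least 10, no trend, fits of only the diets compared, glucose values left unscaled, a replicate block and each library left out. A fit of limma-voom on the recovered reads was added after seeing the data. Scripts ran in Python 3.11.15 with pandas 2.3.3, numpy 2.4.6, matplotlib 3.10.9 and scipy 1.17.1.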

Additional observations from a re-analysis of the deposited data

How the results depend on the processing

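The counts of called members moved with the scaling. They were 5 with fructose, 4 with glucose and 10 over both sugars under library totals, against 10, 11 and 21 as reported. Upper-quartile scaling gave 13 over both sugars. The median of all genes over both sugars was -0.21 under library totals and -0.17 under upper-quartile scaling. The part of this shift in the lost calls was not tested. Calls over all genes were 1366, 2005 and 3347 under library totals, against 1836, 2809 and 3985 as reported. Upper-quartile scaling gave 4145 over both sugars. Leaving out each library in turn gave 4 to 12 members with fructose, 7 to 14 with glucose and 17 to 22 over both sugars, and 1150 to 2033, 1874 to 2892 and 3406 to 4016 of all genes. With fructose 4 members were called without CFD replicate 2, 5 without CFD replicate 3 or HFD replicate 2, and 6 without CFD replicate 1, CGD replicate 2 or HGD replicate 3. Of all genes, fructose changed 1150 when HFD replicate 2 was left out and 1219 when CFD replicate 1 was. With glucose 7 members were called without CGD replicate 1, CGD replicate 2 or HGD replicate 3. In every one of these fits 4 members with fructose, 6 with glucose and 16 over both sugars kept the call. No member changed direction under any alternative in a comparison where it was called. With the replicate block 3 members rose and 4 fell with fructose, where 7 rose and 3 fell as reported, and 1 Vha gene rose in place of 4. The block left 6 higher and 2 lower with glucose, and 13 higher and 5 lower over both sugars. Over all genes it left 777 higher and 813 lower with fructose, 1392 and 1110 with glucose, and 1882 and 1852 over both sugars. Deviations of libraries with the same replicate number correlated from -0.362 to 0.206, and of libraries with different numbers from -0.196 to 0.242. Whether libraries with the same number shared a batch was not tested. The paper's supplement numbers the HFD libraries 4 to 6 and those of the other diets 1 to 3. The block's pairing of HFD with the other diets thus rests on the deposited labels alone. limma-voom on recovered reads called 9, 10 and 21 members, and 1677, 2829 and 3946 of all genes. Fits of just the compared diets called 9 members with fructose and 8 with glucose, and 1672 and 2470 of all genes. Comparisons between the sugars had 0 calls under every alternative run. Low read numbers limit Vha100-4 and Atg12 most, and HFD replicate 2 throughout, with a median of 32 reads per listed gene.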
